A study of Mus musculus with 5 samples.

Results

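The SCF ubiquitin ligase was followed here through the messages of 10 of its subunits and partners, out of 54838 genes listed. The members are the adaptor Skp1a, the scaffold Cul1, the RING subunit Rbx1, the F-box receptors Skp2, Fbxw7, Btrc, Fbxw11 and Ccnf, the Skp2 cofactor Cks1b, and the exchange factor Cand1. They were named for their role, as the core of the ligase and its main receptors, but the family was selected on the siEwsr1 against siCtrl fold changes of these same libraries, in which Skp1a had stood out. Their values between the groups are therefore a description. Where a member is said to be called or not, this only says on which side of the threshold of the fit over all genes it lay, and no p-value is given for it. All 10 members passed the filter on low reads.

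The libraries were made from N2a cells, an established mouse neuroblastoma line, after transfection of a control siRNA into one group (siCtrl, n = 2) and of an siRNA that targets Ewsr1 into the other (siEwsr1, n = 3). The Ewsr1 protein binds RNA and DNA. Both groups received 2 pulses of lipid transfection with 50000 cells, and RNA was collected 24 hours after the last pulse. Total RNA was sequenced after removal of ribosomal RNA, so the values are of a bulk population, in which fewer cells expressing a gene and less RNA per cell cannot be told apart. Neither the siRNA sequences nor the number of siRNAs used against Ewsr1 is given in the sources used here. Effects of lower Ewsr1 and effects of either siRNA on other messages cannot be told apart in this design, which has no untransfected group.

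SCF ligases attach ubiquitin to proteins and so mark most of them for destruction by the proteasome. Cul1 holds Rbx1, which recruits the ubiquitin-charged E2 enzyme, at one end and Skp1 at the other. Skp1 binds the F-box motif of one of many exchangeable receptors, each of which chooses its own substrates, and Cand1 removes receptors from Cul1 so that others can bind. Attachment of the ubiquitin-like protein Nedd8 to Cul1 switches the ligase on, and the COP9 signalosome takes it off again. In dividing cells SCF ligases are best known for the timed loss of cell cycle regulators.

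The libraries held 15045774 to 21339459 counted reads. RPKM is the unit of all levels here, with reads scaled to the exonic kilobases of the gene and to the library total. Ewsr1, the gene the siRNA targets, read 71.7 and 72.3 RPKM in siCtrl against 35.7, 36.3 and 37.6 RPKM in siEwsr1, and it fell by 0.96 on the log2 scale (SE 0.08, limma adjusted p = 7.81e-04). Of 11 markers of N2a cells, 10 were at 1 RPKM or more in every library, and the neurofilament gene Nefm was the exception. The summed level of these 11 markers was 867 to 884 RPKM in siCtrl and 942 to 1047 RPKM in siEwsr1. Most of it came from Chgb and Tubb3. Chgb was at 348 and 328 RPKM in siCtrl and at 452, 449 and 463 RPKM in siEwsr1. Tubb3 was at 328 and 370 RPKM in siCtrl and at 273, 252 and 347 RPKM in siEwsr1. Markers of other cell types were low. The 7 fibroblast and mural markers summed to 3.23 to 3.44 RPKM in siCtrl and to 1.16 to 1.37 in siEwsr1, with Col3a1 at 0. Most of this sum was Acta2, at 2.88 and 2.63 RPKM in siCtrl and at 0.784, 0.921 and 0.867 RPKM in siEwsr1. The 4 immune markers summed to at most 1.0 RPKM (Itgam and Csf1r at 0), the 3 endothelial markers to at most 0.561 (Kdr at 0) and the 4 epithelial markers to at most 1.05 (Krt18 at 0). The part of these markers in the results below was not tested. Nothing in the labels says that replicates came from separate cultures, so the p-values speak only of how these libraries vary, and that variation may be technical.

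Skp1a was the most abundant member and had the largest difference between the groups, which is also the difference that the family was selected on. A gene was called at an adjusted p under 0.05 (limma on log2(RPKM + 0.1), Benjamini-Hochberg adjustment over all 14893 genes tested). By this rule 1 member, Skp1a, lay past the threshold as higher and 0 as lower, where 2.44% of all genes tested were called higher and 2.81% lower. At an unadjusted p under 0.05, 3 members were higher (Skp1a, Fbxw11 and Cul1) and 1 was lower (Cks1b), where 10.8% of all genes tested were higher and 11.4% lower at that threshold. The median log2 fold change of the 10 members was 0.04, and that of all genes tested was -0.01. Since the members were named with this contrast known, nothing is read from these counts.

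**Figure D1:**
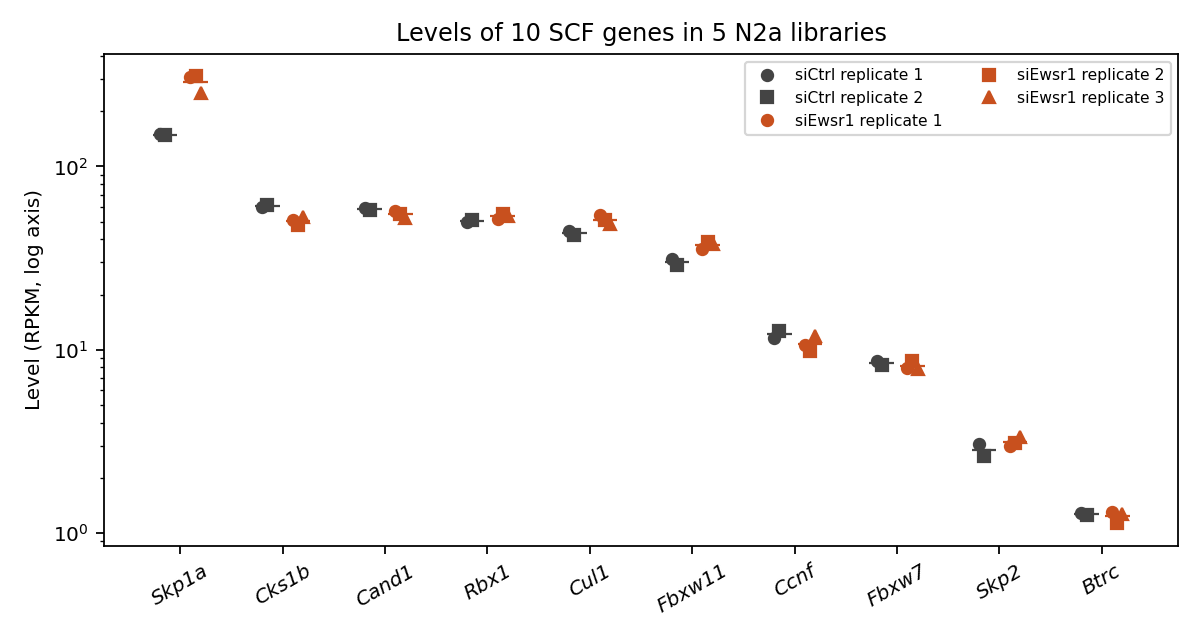
Level of each of the 10 members in every library, in RPKM on a log axis, with siCtrl in black and siEwsr1 in orange; symbols mark the replicate and short lines the group means. Skp1a stands apart from the siCtrl values in all 3 siEwsr1 libraries, whereas the other 9 members stay close to their siCtrl level.

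In the siCtrl libraries the levels per exonic length ran from Skp1a (149 ± 1.84 RPKM, SD, n = 2) through Cks1b (60.8 ± 1.02), Cand1 (58.6 ± 0.604), Rbx1 (50.3 ± 1.07), Cul1 (43.2 ± 1.52), Fbxw11 (30.2 ± 1.62), Ccnf (12.1 ± 0.804), Fbxw7 (8.45 ± 0.280) and Skp2 (2.85 ± 0.286) to Btrc (1.26 ± 0.0205). No neighbours in this order overlapped in siCtrl. In siEwsr1 the ranges of Cand1, Rbx1, Cul1 and Cks1b overlapped with one another, between 47.7 and 56.9 RPKM, so their order there is not resolved. The order also depends on the length that is divided by. RPKM uses the union of all annotated exons, which is 16908 bases for Btrc, although its longest coding transcript has 3037. Per kilobase of the longest coding transcript, Rbx1 moved up to 137 in siCtrl, next to Skp1a at 187, and Btrc at 7.04 stood above Skp2 at 3.63.

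Skp1a, the adaptor shared by all SCF receptors (ENSMUSG00000036309, chr11:52231995-52246858, + strand, GRCm38), was at 150.0 and 147 RPKM in the siCtrl libraries and at 306, 309 and 251 RPKM in the siEwsr1 libraries. Every siEwsr1 library lay above both siCtrl libraries, and siEwsr1 replicate 3 was the lowest of its group. The mean went from 149 ± 1.84 (SD, n = 2) to 289 ± 32.9 RPKM (SD, n = 3), a log2 fold change of 0.96 (SE 0.11). These values rest on 5228 to 14591 reads per library. Skp1a ranked 303 of the 14893 tested genes by its siCtrl level and 97 by its log2 fold change. The difference kept its direction under all 16 alternative settings, with log2 fold changes of 0.92 to 1.08, but it was not called when siCtrl replicate 1 (1.0) or siCtrl replicate 2 (0.96) was left out, nor with a filter of 1 read in 1 library or without trend and robust moderation in limma. A processed pseudogene that matches Skp1a, Gm12988 (92.9% identity over 493 bases), was at 0 in siCtrl and at most at 0.686 RPKM in siEwsr1.

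Cul1, the cullin scaffold (ENSMUSG00000029686, chr6:47453398-47526139, + strand), was at 44.3 and 42.1 RPKM in siCtrl and at 54.3, 51.2 and 48.4 RPKM in siEwsr1. The groups did not overlap, and siEwsr1 was the higher one, but the log2 fold change of 0.26 (SE 0.09) was not called. An opposite-strand pseudogene, A930035D04Rik, covers 4.75% of the exonic length of Cul1, and the strand setting of the counting is not given in the sources used here. Rbx1, the RING subunit that recruits the E2 enzyme (ENSMUSG00000022400, chr15:81466296-81476369, + strand), was at 49.5 and 51.0 RPKM in siCtrl and at 51.8, 55.3 and 53.6 RPKM in siEwsr1. The siEwsr1 libraries again lay just above siCtrl, with a log2 fold change of 0.11 (SE 0.08) that was not called. Its pseudogene Rbx1-ps, 99.1% identical over 327 bases, averaged 2.95 RPKM over siCtrl and 3.18 over siEwsr1, and it is not known here how reads that map to both were counted.

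Relative to one another, the core messages stood at different levels in the groups. The ratio of Skp1a to Cul1 was 3.39 and 3.50 in siCtrl and 5.64, 6.03 and 5.18 in siEwsr1. For Skp1a to Rbx1 the ratio was 3.03 and 2.89 in siCtrl and 5.90, 5.60 and 4.68 in siEwsr1. Neither ratio overlapped between the groups, and both follow from the Skp1a values that the members were chosen with. The ratio of Rbx1 to Cul1 was 1.12 and 1.21 in siCtrl and 0.956, 1.08 and 1.11 in siEwsr1, lower in every siEwsr1 library. The size of each ratio, though not its comparison between libraries, depends on the exonic lengths used.

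Among the receptors, none was called. Skp2, the F-box receptor for the CDK inhibitor encoded by Cdkn1b (ENSMUSG00000054115, chr15:9111985-9155425, - strand), was at 3.05 and 2.65 RPKM in siCtrl and at 2.97, 3.11 and 3.34 RPKM in siEwsr1. The groups overlapped, at a log2 fold change of 0.15 (SE 0.12), and the siCtrl values alone spanned more than that. Cks1b, the small cofactor that Skp2 needs to bind that inhibitor (ENSMUSG00000028044, chr3:89415472-89418383, - strand), was at 60.1 and 61.6 RPKM in siCtrl and at 50.7, 47.7 and 53.2 RPKM in siEwsr1. All siEwsr1 libraries lay below siCtrl, with a log2 fold change of -0.25 (SE 0.09) that was not called. The ratio of Cks1b to Skp2 was 19.7 and 23.2 in siCtrl and 17.1, 15.3 and 16.0 in siEwsr1. The closest copy of Cks1b, Cks1brt, was at most at 0.0239 RPKM in any library.

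Fbxw7, the receptor that recognises phosphorylated cyclin E and Myc proteins (ENSMUSG00000028086, chr3:84815268-84979198, + strand), was at 8.65 and 8.25 RPKM in siCtrl and at 7.93, 8.71 and 7.87 RPKM in siEwsr1. The groups overlapped, and the log2 fold change was -0.03 (SE 0.10), with a sign that turned when siCtrl replicate 1 (0.02) or siEwsr1 replicate 3 (0.01) was left out. Ccnf, which encodes cyclin F, a cyclin that serves as an F-box receptor (ENSMUSG00000072082, chr17:24222198-24251484, - strand), was at 11.5 and 12.7 RPKM in siCtrl and at 10.6, 9.87 and 11.9 RPKM in siEwsr1. One siEwsr1 library lay between the siCtrl libraries, and the log2 fold change was -0.16 (SE 0.10).

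Btrc and Fbxw11 encode the paralogous beta-TrCP receptors, which recognise phosphorylated beta-catenin and IkappaB. Btrc (ENSMUSG00000025217, chr19:45363734-45530013, + strand) was at 1.28 and 1.25 RPKM in siCtrl and at 1.30, 1.13 and 1.27 RPKM in siEwsr1. The groups overlapped at a log2 fold change of -0.02 (SE 0.12), which turned to 0.01 without siCtrl replicate 1 and to 0.05 without siEwsr1 replicate 2. Fbxw11 (ENSMUSG00000020271, chr11:32642724-32746816, + strand) was at 31.3 and 29.0 RPKM in siCtrl and at 35.3, 38.9 and 37.6 RPKM in siEwsr1. All siEwsr1 libraries lay above siCtrl, and the log2 fold change of 0.32 (SE 0.09) was the second highest of the members but was not called. Per exonic length Fbxw11 was the more abundant paralogue in every library, with a ratio to Btrc of 24.5 and 23.2 in siCtrl and of 27.1, 34.5 and 29.6 in siEwsr1. The size of this ratio depends on the exonic length of Btrc given above. By its siCtrl mean Fbxw11 ranked behind Fbxo5 among the F-box messages tested, level with Fbxo30 (30.2 ± 1.62 and 30.1 ± 1.91 RPKM, SD, n = 2), with values that overlapped.

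Cand1, the exchange factor that frees Cul1 from its receptor (ENSMUSG00000020114, chr10:119199255-119240055, - strand), was at 59.0 and 58.2 RPKM in siCtrl and at 56.9, 55.3 and 52.6 RPKM in siEwsr1. Each siEwsr1 value lay below siCtrl before scaling, but after the scaling of the fit the groups overlapped, with a log2 fold change of -0.08 (SE 0.09). The ratio of Cand1 to Cul1 was 1.33 and 1.38 in siCtrl and 1.05, 1.08 and 1.09 in siEwsr1, without overlap.

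**Figure D2:**
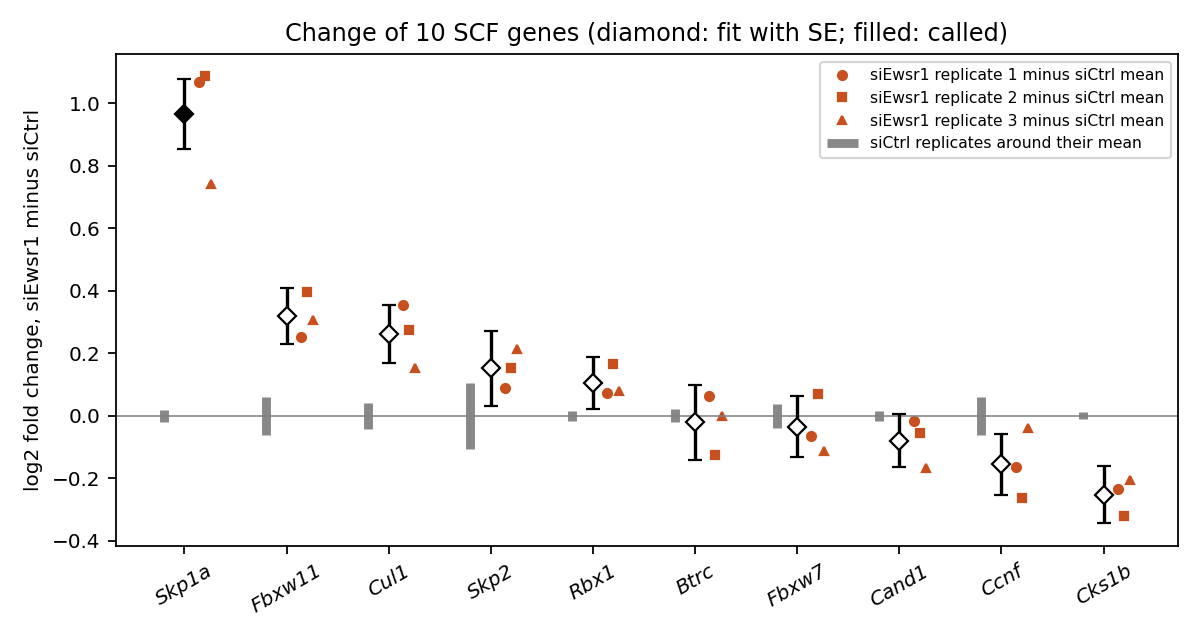
Log2 fold change of each member, siEwsr1 minus siCtrl: diamonds give the fitted value with its standard error (filled where called), orange symbols each siEwsr1 library minus the siCtrl mean, and grey bars the spread of the siCtrl libraries. Only Skp1a is filled, at 0.96, and its siEwsr1 replicate 3 lies below the other two.

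By overlap alone, on the scaled values, 4 members were higher in every siEwsr1 library (Skp1a, Cul1, Rbx1 and Fbxw11) and 1 was lower in every one (Cks1b), where 19.3% and 20.6% of all genes tested lay fully above and fully below. The other 5 overlapped. With siEwsr1 replicate 3 left out, Cul1 and Fbxw11 were also called higher and Cks1b lower, in a comparison in which 13.1% of all genes tested were called higher and 12.9% lower. That library was the closest of its group to siCtrl, with a median absolute log2 difference of 0.20 from the siCtrl mean over all genes tested, against 0.22 for siEwsr1 replicate 1 and 0.26 for siEwsr1 replicate 2. Over the 10 members alone siEwsr1 replicate 1 was the closest, with a median of 0.13, against 0.21 for siEwsr1 replicate 2 and 0.16 for siEwsr1 replicate 3.

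**Figure D3:**
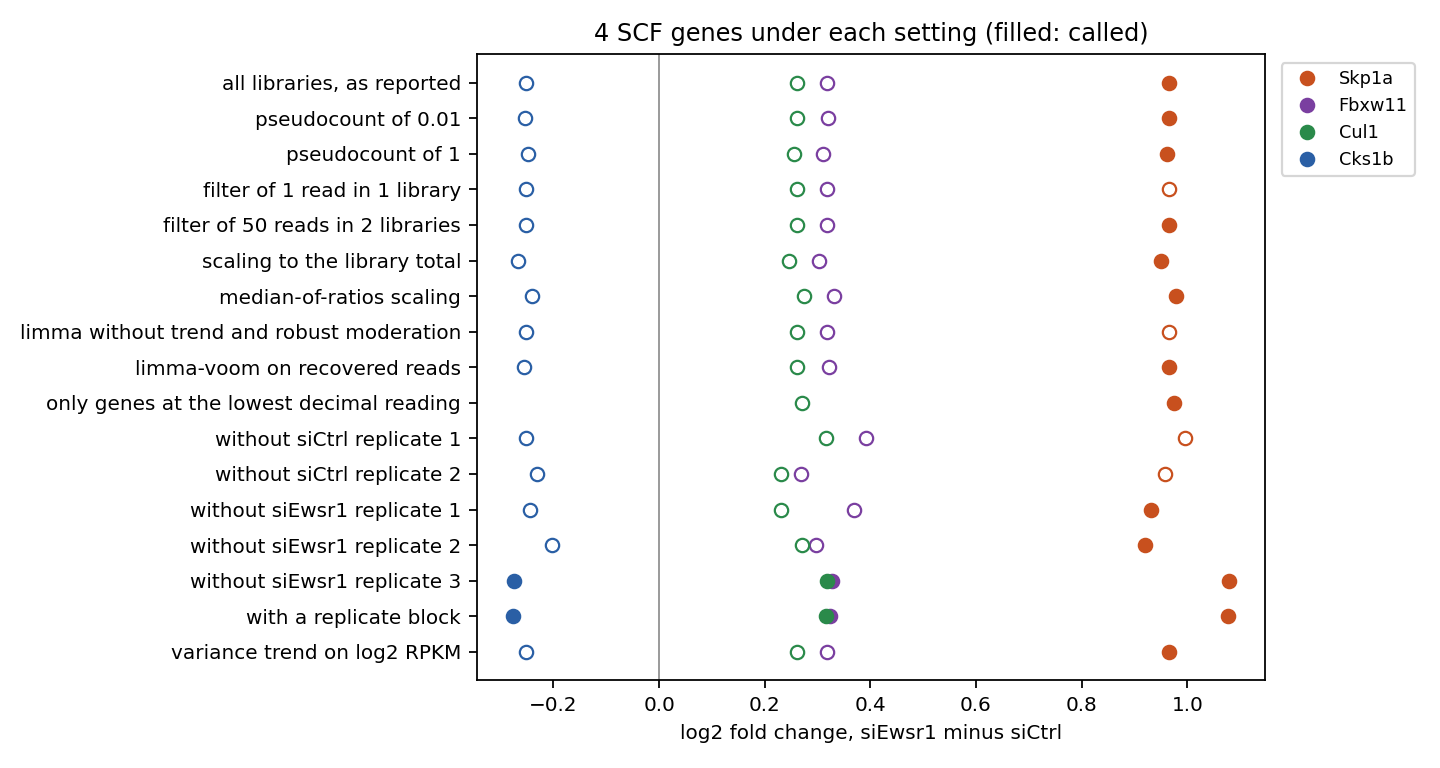
Log2 fold change (siEwsr1 minus siCtrl) of Skp1a, Fbxw11, Cul1 and Cks1b in the reported fit and in each of 16 alternative settings, filled where called. The 4 genes keep their direction throughout, Skp1a is open in 4 settings, and the other three are filled in 2.

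The 3′ UTRs of the members were searched for 2 motifs of 7 bases, TCACTGC and GCAATTT, on the transcript strand and in every annotated 3′ UTR. Both motifs had been picked in an earlier scan of these same fold changes, TCACTGC among genes that were higher and GCAATTT among genes that were lower, so a match here is no independent evidence. TCACTGC was found in Skp1a, Skp2 and Fbxw11, that is 3 of 10 members, and GCAATTT in Cand1. The sites are printed 5′ to 3′ with 10 bases on each side and the motif in capitals, because they let the adaptor be compared with the receptors that hold the same motif. They are from GRCm38.
Skp1a, chr11:52246121-52246147, + strand: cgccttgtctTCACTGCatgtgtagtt
Fbxw11, chr11:32744657-32744683, + strand: cctgacattcTCACTGCaccccagctc
Skp2, chr15:9116325-9116351, - strand: tacagcagttTCACTGCaaaccactag
Skp2, chr15:9114792-9114818, - strand: aacataaaggTCACTGCtgtgctcact
Cand1, chr10:119202309-119202335, - strand: aagcagtagtGCAATTTttcagatact
The Skp1a site lies in a 3′ UTR of 838 bases, and the Fbxw11 site starts at base 162 of one of 2064. Skp2 holds its sites at 516 and 2049 of 4872 bases. The bases around the motif differ among the 3 genes.

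Skp1a was called higher, while Fbxw11 and Skp2 were not called, so members with the motif ranged from 0.15 to 0.96 in log2 fold change. Neither motif is in the 3′ UTRs of Cul1, Rbx1, Cks1b, Fbxw7, Btrc or Ccnf, nor in those of Ewsr1. Of 11911 protein-coding genes tested, 14.3% hold TCACTGC, and of these 7.99% were called higher, against 2.06% of the genes without it. GCAATTT is in 8.40%, and of these 9.4% were called lower, against 2.54% of the others. Since the motifs were picked on these same fold changes, differences in these directions were built in by the choice and are no evidence. In the opposite direction, 2.64% of the genes with TCACTGC were called lower, against 3.19% without it. With GCAATTT 1.3% were called higher, against 3.05% without it. Genes with either motif have longer 3′ UTRs, with medians of 2537 bases against 1024 for TCACTGC and 2689 against 1078 for GCAATTT. The part of length in these shares was not tested.

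The other genes of the pathway were described by lists drawn up with earlier results known. Their calls and p-values are therefore a description too, and nothing is read from the counts. In the 10 lists, 14 of 161 tested genes were called, 11 of them higher and 3 lower. Of all genes tested, 2.44% were called higher and 2.81% lower. All 14 called list genes kept their direction and were called when siEwsr1 replicate 3 was left out. None was called without siCtrl replicate 1 (adjusted p at most 0.312) or without siCtrl replicate 2 (at most 0.501). Without siEwsr1 replicate 1 only 2 were called, and without siEwsr1 replicate 2 only 9. None was called with a filter of 1 read in 1 library or by limma without trend and robust moderation, 5 were called with the variance trend on log2 RPKM, and 8 with a pseudocount of 1. The counts at an unadjusted p under 0.05 given for each list below stand against 10.8% of all genes tested higher and 11.4% lower.

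**Figure D4:**
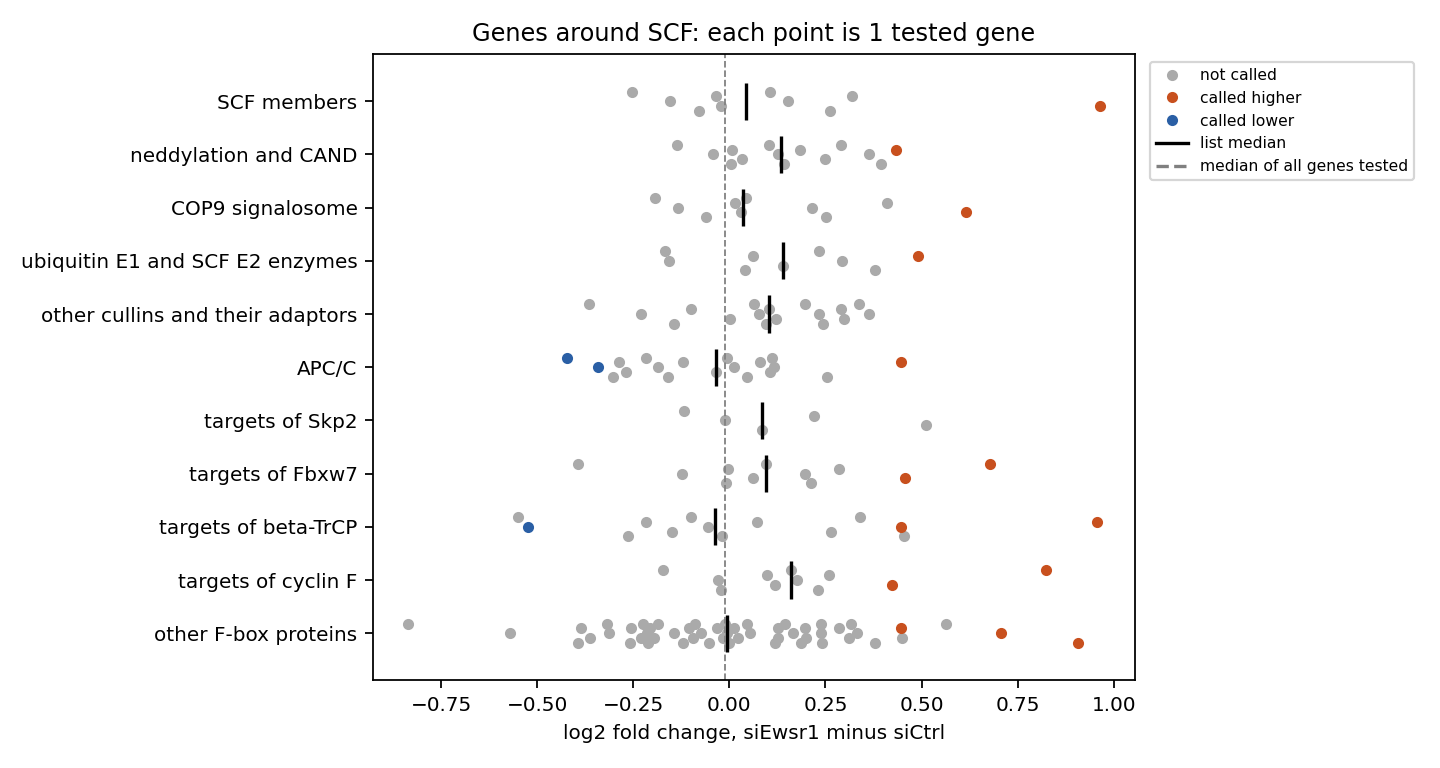
Log2 fold change (siEwsr1 minus siCtrl) of every tested gene in the member list and in 10 lists around it, orange where called higher and blue where called lower; black lines give each list's median and the dashed line that of all genes tested (-0.01). List medians lie between -0.04 and 0.16. Some genes that were not called lie further out than called genes of their list.

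Of the machinery that switches cullins on and off, 1 of 14 tested neddylation and CAND genes was called, and it was higher (4 higher and 0 lower at an unadjusted p under 0.05). This gene, Rnf7, encodes the RING paralogue of Rbx1 that works with Cul5. It was at 87.4 and 93.5 RPKM in siCtrl and at 121, 122 and 119.6 RPKM in siEwsr1, and it rose by 0.43 on the log2 scale (SE 0.08, limma adjusted p = 0.0201), above every siCtrl value. Nedd8 itself was not called, at -0.14 (SE 0.09). Of the 10 COP9 signalosome genes 1 was called higher (3 higher and 0 lower unadjusted). Cops4 was at 19.8 and 17.8 RPKM in siCtrl and at 29.2, 29.4 and 27.2 RPKM in siEwsr1, and it rose by 0.62 (SE 0.09, limma adjusted p = 0.00717). Cops5, the subunit that cleaves Nedd8 from cullins, was not called at 0.25 (SE 0.09). Of 9 E1 and E2 enzymes of the SCF pathway, Ube2r2, an SCF-linked E2 enzyme, rose by 0.49 (limma adjusted p = 0.0392) and the others were not called (3 higher and 0 lower unadjusted). None of the 17 other cullins and their adaptors was called by limma, and at an unadjusted p under 0.05 there were 6 higher and 2 lower.

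Of 53 tested F-box genes outside the members (75 are listed), 3 were called higher and 0 lower by limma, with a median of -0.01. At an unadjusted p under 0.05 there were 8 higher and 4 lower. Fbxo10, at 1.34 and 1.23 RPKM in siCtrl and at 2.27, 2.47 and 2.70 RPKM in siEwsr1, rose by 0.91 (SE 0.15, limma adjusted p = 0.0105). Fbxo5, which encodes the inhibitor of the anaphase-promoting complex also called Emi1, was the most abundant F-box message and was at 55.6 and 53.8 RPKM in siCtrl and at 75, 79.2 and 67.5 RPKM in siEwsr1. It rose by 0.45 (SE 0.10, limma adjusted p = 0.0335). Fbxo48 rose by 0.71 (limma adjusted p = 0.0372). The 80 F-box genes together summed to 523 and 533 RPKM in siCtrl and to 561, 564 and 573 RPKM in siEwsr1. The ratio of Skp1a to that sum was 0.287 and 0.276 in siCtrl and 0.545, 0.548 and 0.437 in siEwsr1. The groups overlapped in neither quantity, and the ratio again carries the Skp1a values. The mean sums were 528 RPKM in siCtrl and 566 in siEwsr1, of which Fbxo5 alone made up 54.7 and 73.9 RPKM. Outside the members, 25 of the 53 tested F-box genes had a log2 fold change above 0, so the sum does not describe the family gene by gene.

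In the anaphase-promoting complex, the other large ubiquitin ligase of the cell cycle, 1 of 19 tested genes was called higher and 2 lower, and at an unadjusted p under 0.05 there were 2 higher and 5 lower. The higher one is Fbxo5, which also stands in the F-box and beta-TrCP lists. Anapc7 fell by 0.42 and Anapc16 by 0.34 (both limma adjusted p = 0.0497), just inside the threshold. Anapc7 was called in 5 and Anapc16 in 6 of 16 alternatives, and neither with median-of-ratios scaling or a pseudocount of 1.

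The known protein targets of the 4 kinds of receptor were measured here as messages only, and ubiquitin ligases act on the proteins. Of the 5 tested Skp2 targets 0 were called in either direction by limma, and 1 was higher at an unadjusted p under 0.05. That gene, Cdkn1b, was at 40.8 and 33.1 RPKM in siCtrl and at 52.9, 59.7 and 44.4 RPKM in siEwsr1, a log2 fold change of 0.51 (SE 0.14, limma adjusted p = 0.0617). The groups did not overlap. Foxo1 was listed at 0 and Cdkn1c was near 0.

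Of the 11 Fbxw7 targets 2 were called higher and 0 lower by limma, and at an unadjusted p under 0.05 there were 3 higher and 1 lower. Ccne1, which encodes cyclin E1, was at 9.46 and 11.2 RPKM in siCtrl and at 15.2, 16.0 and 17.9 RPKM in siEwsr1. It rose by 0.68 (SE 0.11, limma adjusted p = 0.0105), with every siEwsr1 library above siCtrl. Ccne2, which encodes cyclin E2, was more abundant, at 43.6 and 39.4 RPKM in siCtrl and at 46.6, 50.8 and 35.5 RPKM in siEwsr1. Its groups overlapped, and it was not called, at 0.09 (SE 0.15). Mycn, the Myc family gene that marks many neuroblastomas, rose by 0.46 (limma adjusted p = 0.0392). Myc was not called, at -0.12.

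Of the 14 beta-TrCP targets 2 were called higher and 1 lower, and at an unadjusted p under 0.05 there were 5 higher and 4 lower. Deptor, an inhibitor of the kinase mTOR, was low at 1.25 and 1.03 RPKM in siCtrl and at 2.21, 2.5 and 2.15 RPKM in siEwsr1. It rose by 0.96 (SE 0.14, limma adjusted p = 0.0065). The other called higher is Fbxo5. Atf4, the transcription factor of the integrated stress response, was at 436 and 440.0 RPKM in siCtrl and at 307, 276 and 324 RPKM in siEwsr1, and it fell by 0.52 (SE 0.09, limma adjusted p = 0.0102). Ctnnb1, which encodes beta-catenin, was not called at -0.22 (SE 0.08).

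Of the 11 cyclin F targets 2 were called higher and 0 lower by limma, and at an unadjusted p under 0.05 there were 4 higher and 0 lower. E2f1, a transcription factor of entry into S phase, was at 6.64 and 7.29 RPKM in siCtrl and at 11.4, 11.7 and 13.8 RPKM in siEwsr1. It rose by 0.82 (SE 0.12, limma adjusted p = 0.00478), with no overlap. Rrm2, a subunit of ribonucleotide reductase, rose by 0.42 (limma adjusted p = 0.0248). Slbp, the histone stem-loop binding protein, was not called at 0.23 (SE 0.09).

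Of 161 tested genes in these lists, 28 hold TCACTGC in a 3′ UTR. Of these, 4 were called higher (Cops4, Mycn, Deptor and Fbxo10), 0 lower, and 24 were not called. In every siEwsr1 library, 10 of the 28 lay above siCtrl and 3 below. GCAATTT is in 12, of which 1 was called higher (Ube2r2), 0 lower, and 11 were not called. Of these 12, 3 lay fully above siCtrl and 3 fully below. Over all genes tested, 2.44% were called higher and 2.81% lower, and 19.3% lay fully above and 20.6% fully below. Among protein-coding genes tested that hold TCACTGC, 7.99% were called higher and 2.64% lower. Among those with GCAATTT, 1.3% were called higher and 9.4% lower. As for the members, these matches only describe the sequences.

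The profile of Skp1a over the 5 libraries was compared with those of 5059 genes with a mean of at least 10 RPKM, by the mean absolute difference of log2 levels after each gene was centred on its own mean. The 5 nearest were Ndufaf4 (0.0533), Api5 (0.0585), Slc25a46 (0.0633), Isl1 (0.0644) and Snrpe (0.0657). All of them were called higher, which the likeness to Skp1a brings with it. The filter used the mean over all 5 libraries, so it favours genes that are high in siEwsr1. Slc25a46 (means of 6.85 RPKM in siCtrl and 14.3 in siEwsr1) and Isl1 (8.21 and 14.6) passed it only through siEwsr1. Api5, an inhibitor of apoptosis, went from 36.6 ± 2.65 RPKM in siCtrl (SD, n = 2) to 76.3 ± 5.92 in siEwsr1 (SD, n = 3), and Snrpe, a core protein of the spliceosomal snRNPs, from 61.6 ± 1.12 to 131 ± 10.2 RPKM.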

How the data were processed

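Per the labels' protocols, the 5 total RNA libraries came from a stranded kit with ribosomal RNA removal. The submitters' processing notes name STAR 2.5.2b, featureCounts 1.5.1, edgeR and GRCm38. Strand setting, annotation release and the handling of multi-mapping reads: none is given in the sources used here. The siRNA concentration stands in the labels as 100 µM.

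The authors deposited 1 file per library with 1 value per gene, without a unit in the header. By their behaviour the deposited values are RPKM, but 12129 to 12449 values per library of 1 or more have lost their decimal point. It was restored by requiring that value, exonic length (GENCODE M21, GRCm38) and library total give whole reads, without use of the groups. Where several decimal positions did so, readings that kept the 5 libraries alike were favoured, with a penalty on higher positions. Of the intact values above 0, 98.5% to 98.6% came out whole within 1e-06 reads. Of 27255 genes above 0, 27121 were kept, and 123 were left out because the odds for their reading were under 20. All 10 members were restored with their annotated length. Cks1b, Cand1, Rbx1, Fbxw11, Ccnf and Ewsr1 needed a decimal position above the lowest in 1 library. One read is worth 0.0469 to 0.0665 CPM, and changes near 10-fold may be misread.

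Genes that reached 10 reads, scaled to the median library, in 2 or more libraries entered the test with limma 3.58.1 (R 4.3.3) on log2(RPKM + 0.1). The fit used trimmed-mean scaling (30% of ratios, 5% of levels), a variance trend on mean log2 reads and robust moderation. A count model was not used because the reads are inferred. Fold changes on this scale understate those of low genes. The plan named no covariate for the trend. Mean log2 reads was chosen after the calls with mean log2 RPKM had been seen. The members and lists were chosen with earlier results of these data known. Named genes were the 10 members, Ewsr1, called genes of each list (up to 6 per direction), targets of the receptors described, and the 5 profiles nearest to Skp1a. Copies were sought among annotated transcripts at 90% identity over 200 bases. Alternatives covered pseudocount, filter, scaling, moderation, voom, decimal reading, replicates and a replicate block. Scripts were tested on simulated data.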

Additional observations from a re-analysis of the deposited data

How the results depend on the processing

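The direction of Skp1a, Cul1, Fbxw11 and Cks1b held in every alternative run for them, whereas the numbers of calls depended strongly on the libraries and the variance model. Members called higher numbered 1 as reported, 0 with a filter of 1 read, 0 by limma without trend and robust moderation, and 0 to 3 with each library left out in turn; members called lower numbered 0 as reported and 0 to 1 with a library left out. Over all genes, 363 were called higher and 419 lower as reported. The counts were 172 and 222 with a pseudocount of 1, 21 and 40 with a filter of 1 read, and 0 and 0 by limma without trend and robust moderation (1273 and 1506 at an unadjusted p under 0.05). With the variance trend on log2 RPKM, which was run first and replaced after its calls were seen, they were 117 and 149. With each library left out in turn they ranged from 11 to 1906 higher and from 4 to 1876 lower. The lowest counts came without siCtrl replicate 1 (11 and 4) and siCtrl replicate 2 (11 and 7), which leave a lone siCtrl library assumed to vary like the siEwsr1 ones, and the highest without siEwsr1 replicate 3; without siEwsr1 replicate 1 they were 52 and 67. The causes were not tested. The direction turned for Fbxw7 (log2 fold changes of -0.072 to 0.017 with a library left out, above 0 without siCtrl replicate 1 or siEwsr1 replicate 3) and for Btrc (-0.048 to 0.045, above 0 without siCtrl replicate 1 or siEwsr1 replicate 2). Of the 390 alternative values of single genes, 280 kept direction and side of the threshold, 99 lost the call, 6 gained one and 5 reversed.

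Replicate numbers are shared by the groups, and the labels do not say whether they mark shared cultures. Deviations of same-numbered libraries correlated at 0.0275 (number 1) and -0.122 (number 2). With 2 siCtrl libraries, whose deviations mirror each other, these correlations cannot decide whether same-numbered libraries were paired. A fit with the replicate number as a block, in which siEwsr1 replicate 3 has no partner, called 3 members higher and 1 lower and, over all genes, 1642 higher (11.0%) and 1696 lower (11.4%), with Fbxw7 at 0.0042 in place of -0.03.

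Depth limits Btrc and Skp2 most, at 331 to 407 and 352 to 523 reads per library. Cks1b, Cand1, Rbx1, Fbxw11 and Ccnf have no value when only the lowest decimal reading is kept.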
